A study of Homo sapiens with 4 samples.

Results

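The 10 metabolic nuclear receptors of the liver described here are PPARA, PPARD, PPARG, NR1H2 (LXRβ), NR1H3 (LXRα), NR1H4 (FXR), NR0B2 (SHP), NR1I2 (PXR), RXRA and RORA. They were taken by gene symbol from the deposited tables, in which all 10 were found among 44591 gene rows. The study sequenced RNA of cells labelled HepG2, the name of an established human hepatocellular carcinoma cell line, after transfection with siNC, a control siRNA, or with an siRNA directed against the long noncoding RNA LINC01186, and asked which genes respond to the loss of that RNA. Each group had 2 libraries, numbered replicate 1 and replicate 2. All 4 cultures were transfected at about 70% confluency, kept for 6 h without serum and then for 24 h with 10% serum, so the time in culture was shared by both groups. By the study's own account, both replicates received the same siNC but different oligos against LINC01186, and the labels do not name the oligo of each library. The study calls the replicates biological, but the labels do not say whether they were separate cultures, so p-values measure the spread between these libraries.

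Nuclear receptors are transcription factors that small lipophilic molecules switch on. PPARs sense fatty acids, the LXRs sense oxysterols, FXR senses bile acids and PXR senses drugs and other foreign chemicals, and each of these binds DNA as a pair with a retinoid X receptor such as RXRA. NR0B2 lacks a DNA-binding domain and represses other receptors in response to FXR, while RORA binds DNA as a monomer and is best known for its part in the circadian clock and in lipid metabolism. In hepatocytes these receptors together set the balance of fat burning, cholesterol export, bile acid synthesis and detoxification.

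A fall of LINC01186 could not be detected under siLINC01186 in these libraries. The study reports its knockdown by siRNA in HepG2 cells from quantitative PCR, which is not part of these counts. Its reads numbered 15 and 14 in the siNC libraries of replicates 1 and 2 and 12 and 14 in those labelled siLINC01186. The ratio of siLINC01186 to siNC was 0.938 in replicate 1 (exact 95% interval 0.401 to 2.15) and 0.908 in replicate 2 (exact 95% interval 0.401 to 2.06). With so few reads, a fall down to 0.401 lies within both intervals. All intervals on ratios and levels cover counting error only. Every direction below is therefore between libraries as labelled.

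The data went against the liver label. The 11 hepatocyte markers examined, which include ALB (albumin), AFP, APOA1, APOB and TTR, summed to 3.17 and 10.8 TPM in siNC replicates 1 and 2 and to 2.96 and 10.1 TPM in the siLINC01186 replicates, where TPM is the read count per gene length, rescaled to a fixed sum in each library. ALB had 0 counts in both replicate 1 libraries, 15 in siNC replicate 2 and 14 in siLINC01186 replicate 2. In the same order of libraries, 7, 1, 5 and 0 of the 11 markers had no counts. The markers of other liver cells summed to 67.7 to 91.2 TPM, most of it CD68 at 53.9 to 61.9 TPM. Of the fibroblast or stellate markers, COL1A1 stood at 10.2 and 18.1 TPM in siNC and 7.15 and 13.4 TPM in siLINC01186. COL3A1 stood at 3.49 to 5.77 TPM, DCN at 1.09 to 2.29 TPM and LUM at 0.481 to 1.16 TPM. The endothelial markers PECAM1, CDH5 and VWF stood at 0 to 1.14 TPM and CD14 at 0.282 to 1.73 TPM. The leukocyte markers PTPRC and CD3E had 0 to 2 counts and 0 counts. In the study's supplement, the DNA profile of its HepG2 stock fully matched a HepG2 reference. That check was of the stock and not of these libraries. The defining genes of a hepatocyte were at or near 0 in these libraries. The identity of the sequenced cells is thus in doubt, and the receptors are described here as those of these cells.

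The libraries held between 14968958 and 17297245 counts, and 3 counts, taken as the floor, correspond to 0.169 to 0.210 CPM, the count scaled to 1000000 reads by the TMM-adjusted library size. Between genes, levels were compared in deposited TPM. The level of a receptor was compared between libraries in CPM, because a single row, the microRNA gene MIR6087, took 1.16% and 1.91% of all TPM in the siNC replicates and 13.8% and 8.69% in the siLINC01186 replicates. Sums over marker genes, which add genes of unequal length, are in TPM and carry that shift. The chi-square per gene between replicates was 23.4 in siNC and 27.2 in siLINC01186, well over the 1 that counting alone gives. In bulk RNA, a smaller share of cells that express a gene and less RNA of that gene per cell cannot be told apart.

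The sequence before the transcription start differed widely among the receptors. To show this range, the 250 bases upstream of a RefSeq start (GRCh38.p14) are given for RXRA, PPARA, PPARG and NR1H4, with every CpG dinucleotide in capitals, each read 5′ to 3′ on the plus strand. Where RefSeq lists several starts for a gene, the start with the most CpG was taken. The windows are chr9:134326205-134326454 for RXRA, chr22:46150538-46150787 for PPARA, chr3:12288810-12289059 for PPARG and chr12:100503110-100503359 for NR1H4.
RXRA: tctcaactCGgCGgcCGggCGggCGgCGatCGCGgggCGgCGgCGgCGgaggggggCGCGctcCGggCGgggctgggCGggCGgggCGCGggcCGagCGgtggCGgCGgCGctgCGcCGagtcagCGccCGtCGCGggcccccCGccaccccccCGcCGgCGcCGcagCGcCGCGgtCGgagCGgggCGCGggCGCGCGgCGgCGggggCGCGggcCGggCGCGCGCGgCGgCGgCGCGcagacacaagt
PPARA: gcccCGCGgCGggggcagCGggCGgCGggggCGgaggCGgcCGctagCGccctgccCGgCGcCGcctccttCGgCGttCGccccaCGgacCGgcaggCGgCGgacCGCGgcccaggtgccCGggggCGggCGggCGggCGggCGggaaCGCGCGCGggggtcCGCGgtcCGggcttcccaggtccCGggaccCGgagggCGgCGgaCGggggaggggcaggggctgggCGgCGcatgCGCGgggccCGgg
PPARG: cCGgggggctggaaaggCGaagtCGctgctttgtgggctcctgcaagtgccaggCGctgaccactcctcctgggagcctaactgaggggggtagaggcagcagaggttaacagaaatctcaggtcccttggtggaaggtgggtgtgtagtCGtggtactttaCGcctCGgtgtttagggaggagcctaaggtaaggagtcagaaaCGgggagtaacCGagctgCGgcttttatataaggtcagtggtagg
NR1H4: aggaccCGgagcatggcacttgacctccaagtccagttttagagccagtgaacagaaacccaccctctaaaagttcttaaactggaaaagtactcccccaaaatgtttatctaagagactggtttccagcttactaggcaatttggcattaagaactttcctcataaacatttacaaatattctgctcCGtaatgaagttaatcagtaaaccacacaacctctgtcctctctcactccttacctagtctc

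RXRA had 59 CpG in this window and PPARA had 45, against a median of 11 over 35116 RefSeq promoters. PPARG had 10 and NR1H4 had 2. The other receptors with a listed start had 23 for PPARD, 17 for NR1H2, at most 22 for NR1H3, at most 4 for NR1I2 and 1 for RORA. RXRA, the highest of the 10 by mean siNC TPM, had the most CpG, but PPARG, which was well expressed, had fewer than the median. The median counts each start singly, whereas a receptor with several starts is given by its highest. The other listed start of RXRA had 7 CpG, and which start these cells use was not tested. For RORA the only window listed was chr15:60627531-60627780 on the minus strand. Its gene row reaches 61521502 in hg19, and starts near that end were not examined. The receptor half-site AGGTCA, searched on both strands, was present at 12.1% of all promoters, each counted singly. It was found at 1 or more starts of PPARG, NR1H3 and NR1H4 and at none of the listed starts of the other 6 receptors, which says only that these letters are not in those windows.

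In siNC cells the 10 receptors fell into 6 at 5.25 TPM or more and 4 below 1 TPM. RXRA, the shared partner, had the highest mean, at 76.3 and 67.9 TPM in siNC replicates 1 and 2. The tables place it on the plus strand of chromosome 9, 137218309 to 137332432, and the submitters' processing notes name hg19 as the build. Its range overlapped that of NR1H2, at 68.8 and 58.8 TPM (chromosome 19, 50879680 to 50886285, plus strand), so the order of these 2 did not exceed their spread. In siLINC01186 the order of the means was the reverse, with RXRA at 61.1 and 68.7 TPM and NR1H2 at 67.7 and 76.3 TPM. These ranges overlapped too.

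NR1H3, the LXR that is more restricted to metabolic tissues, stood below NR1H2 at 46.0 and 46.1 TPM (chromosome 11, 47269851 to 47290584, plus strand). The ratio of NR1H2 to NR1H3 in TPM lay between 1.27 and 1.62 in the 4 libraries. NR1H3 shares 548 bases of its span with ACP2 on the opposite strand, which had 1776 and 1277 counts in siNC, and the library kit named by the study does not mark strand, so reads from that overlap cannot be assigned.

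Among the PPARs, PPARG, known for its role in fat storage, was the most abundant and PPARA, the main driver of hepatic fatty acid oxidation, the least. PPARG stood at 25.5 and 22.0 TPM in siNC (chromosome 3, 12329349 to 12475855, plus strand). PPARD, the broadly expressed member, stood at 13.1 and 13.9 TPM (chromosome 6, 35310335 to 35395968, plus strand). PPARA stood at 5.25 and 8.86 TPM (chromosome 22, 46546499 to 46639653, plus strand). Of the TPM of the 3 PPARs, PPARG held 49.2% to 63.7%, PPARD 23.8% to 31.0% and PPARA 12.0% to 19.8% over the 4 libraries. From NR1H2 down to PPARA, the siNC ranges of neighbours in this order did not overlap, and neither did their ranges over all 4 libraries.

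Below PPARA came a 17.8-fold step. RORA, whose gene spans chromosome 15 from 60780483 to 61521502 on the minus strand, had 18 and 50 counts in siNC, or 0.202 and 0.590 TPM. The bile acid and drug receptors were at or near 0. NR0B2 (chromosome 1, 27237975 to 27240567, minus strand) had 0 and 2 counts and NR1I2 (chromosome 3, 119499331 to 119537332, plus strand) had 4 and 3. NR1H4 (chromosome 12, 100867551 to 100957645, plus strand) had 0 counts in both siNC libraries, which allows up to 0.179 and 0.186 CPM. The siNC range of NR0B2 overlapped those of RORA and of NR1I2, so its place in the order did not exceed the spread. RORA lay above NR1I2, at 0.114 and 0.0895 TPM in siNC, without overlap. RORA overlaps 7 annotated rows on the opposite strand, of which RORA-AS1 had 14 and 12 counts in siNC and 17 and 38 in siLINC01186, the last a count like that of RORA itself, 37, in the same library.

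**Figure D1:**
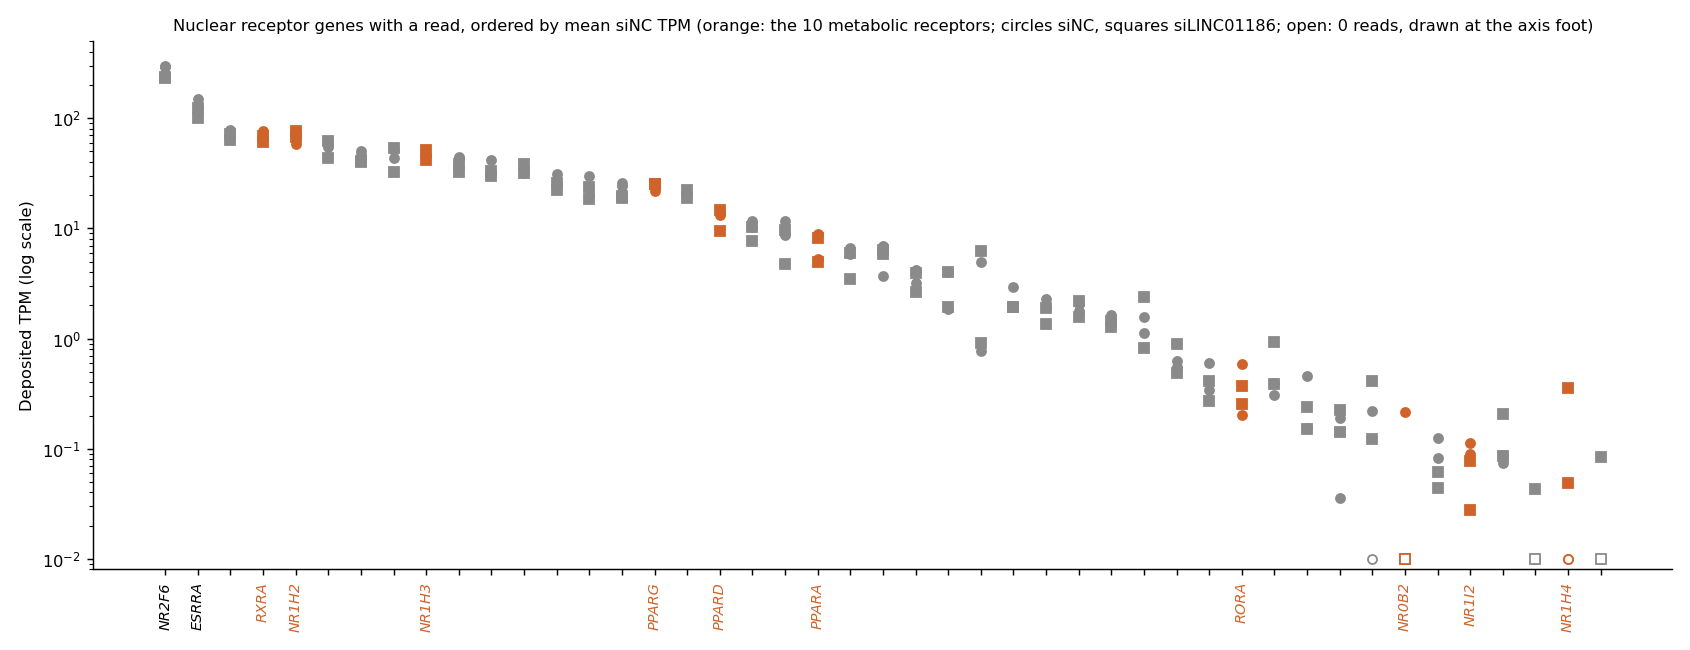
Deposited TPM (log axis) of each nuclear receptor gene with a read, ordered by mean siNC level, with 1 point per library (circles siNC, squares siLINC01186) and the 10 metabolic receptors in orange. Names are given for these 10 and for the 2 highest receptors. Open points at the foot had no reads. RXRA ranked 4 and NR1H2 5 of 48 receptors, while NR0B2, NR1I2 and NR1H4 ranked 39, 41 and 44.

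Among all 48 nuclear receptor genes in the tables, RXRA ranked 4, NR1H2 5, NR1H3 9, PPARG 16, PPARD 18, PPARA 21 and RORA 34 by mean siNC TPM, and NR0B2, NR1I2 and NR1H4 ranked 39, 41 and 44. The top 2 were NR2F6, an orphan receptor, with a mean of 295 TPM, and ESRRA, a regulator of mitochondrial genes, with 136 TPM. The 10 receptors together held 20.0% and 19.3% of the TPM of all nuclear receptors in siNC replicates 1 and 2. In siLINC01186 they held 21.2% and 23.6%. The plot of receptors by level shows the abundant 6 spread through the upper part of the order and the other 4 in its tail.

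The target genes of the receptors differed in level in the same libraries. Lipid synthesis genes that LXRs activate were abundant, with FASN, the fatty acid synthase, at 308 to 483 TPM and SCD, a desaturase, at 210 to 385 TPM. HADHA and CPT1A, both enzymes of fatty acid oxidation and PPAR targets, stood at 123 to 216 and 71.0 to 119 TPM. Several classical hepatic targets had no reads. CYP7A1, the rate-limiting enzyme of bile acid synthesis, and the FXR target FETUB had 0 counts in all 4 libraries. So did CYP2C8, GSTA1 and GSTA2, targets of PXR. The floor of the shallowest library was 0.210 CPM. FGF21, a hepatic PPARA target named here after its values were seen, had at most 2 counts in any library. Other members of the FXR and PXR lists were abundant. The FXR targets SDC1 and ICAM1 stood at 161 to 234 and 41.2 to 55.8 TPM. The PXR targets ALAS1 and ABCC2 stood at 75.1 to 115 and 44.3 to 62.2 TPM.

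**Figure D2:**
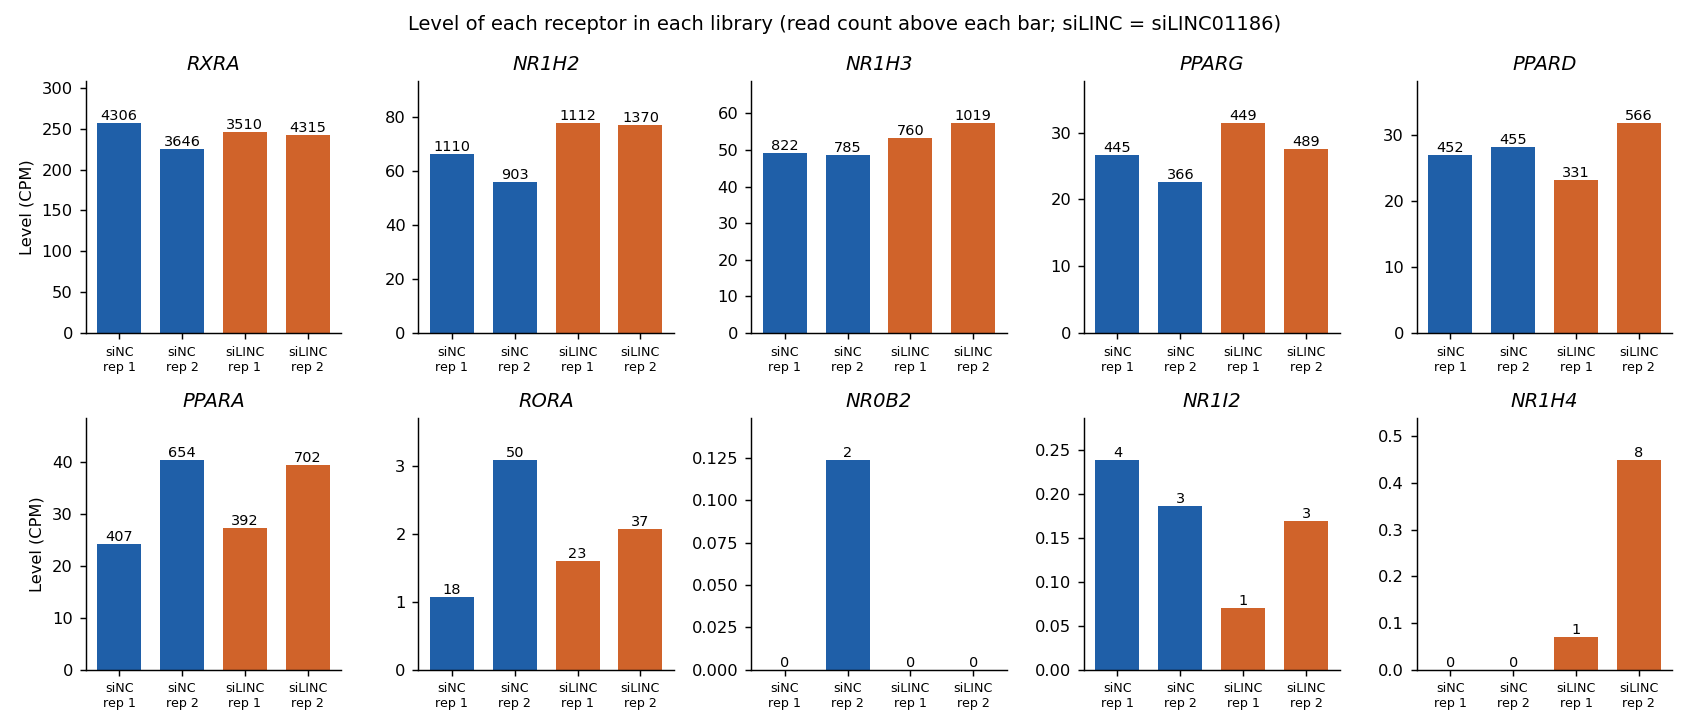
CPM (linear axes from 0) of each receptor in each library, with the read count above each bar. PPARA was near 40 CPM in both replicate 2 libraries and below 28 CPM in both replicate 1 libraries, and 3 receptors had fewer than 10 counts in every library.

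The comparison of siLINC01186 with siNC asked whether the receptors respond to the siRNA, and no receptor passed the test. Over the 23942 genes whose counts summed to at least 5, edgeR's quasi-likelihood test called 0 at an adjusted p under 0.05, a background of 0%, with 289 genes at an unadjusted p under 0.05 and 1 gene called by DESeq2's Wald test. The filter kept 9 of the 10 receptors and removed NR0B2, and NR1H4 passed it only through its siLINC01186 reads. All 9 had an adjusted p of 1.00.

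NR1H2 had the largest difference among the abundant receptors. Its level was 66.3 and 55.9 CPM in siNC replicates 1 and 2 and 77.8 and 77.1 CPM in the siLINC01186 replicates. Both siLINC01186 libraries thus lay above both siNC libraries on this scale. The log2 fold change was 0.34 (standard error 0.19). Within pairs the siLINC01186 to siNC ratio was 1.17 in replicate 1 (exact 95% interval 1.08 to 1.28) and 1.38 in replicate 2 (1.27 to 1.50).

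PPARG stood at 26.6 and 22.7 CPM in siNC and 31.4 and 27.5 CPM in siLINC01186, again without overlap. Its log2 fold change was 0.26 (standard error 0.20), and its pair ratios were 1.18 (1.04 to 1.35) and 1.21 (1.06 to 1.39). NR1H3 stood at 49.1 and 48.6 CPM in siNC and 53.2 and 57.3 CPM in siLINC01186. Its log2 fold change was 0.18 (standard error 0.18), and its pair ratios were 1.08 (0.981 to 1.20) and 1.18 (1.07 to 1.30). On the TPM scale the groups of all 3 receptors overlapped, with NR1H3, for instance, at 46.0 and 46.1 TPM in siNC and 41.8 and 51.2 TPM in siLINC01186.

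RXRA, PPARD and RORA had pair ratios on opposite sides of 1. RXRA stood at 257 and 226 CPM in siNC and 246 and 243 CPM in siLINC01186, and the groups overlapped. Its pair ratios were 0.956 (0.914 to 0.999) and 1.08 (1.03 to 1.12), and its log2 fold change was 0.02 (standard error 0.18). PPARD stood at 27.0 and 28.2 CPM in siNC and 23.2 and 31.8 CPM in siLINC01186. Its siLINC01186 libraries lay on either side of siNC, with pair ratios of 0.858 (0.743 to 0.991) and 1.13 (0.997 to 1.28). The log2 fold change of PPARD was 0.00 to 2 decimals, with a standard error of 0.22.

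PPARA stood at 24.3 and 40.5 CPM in siNC and 27.4 and 39.5 CPM in siLINC01186. The replicates of each group lay further apart than the group means, and the log2 fold change was 0.05 (standard error 0.28). Its pair ratios were 1.13 (0.980 to 1.30) and 0.975 (0.875 to 1.09), and with counts scaled by the library total alone they were 1.11 and 1.01. RORA had 18 and 50 counts in siNC and 23 and 37 in siLINC01186, and its pair ratios were 1.50 (0.773 to 2.95) and 0.672 (0.427 to 1.05). Its log2 fold change was -0.17 (standard error 0.54), and the groups overlapped.

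NR1H4 had 0 and 0 counts in siNC and 1 and 8 in siLINC01186. It was the only receptor past the fold limits the study used, an absolute log2 fold change over 1 together with p under 0.05 before adjustment, which 0.756% of all genes tested passed. It rests on 8 counts in siLINC01186 replicate 2, it did not pass without siNC replicate 1 or without siNC replicate 2, and without siLINC01186 replicate 2 it had too few counts to be tested. NR1I2 had 4 and 3 counts in siNC and 1 and 3 in siLINC01186, and its pair ratios were 0.293 (0.00595 to 2.96) and 0.908 (0.122 to 6.78). NR0B2 had 2 counts in siNC replicate 2 and 0 in the other 3 libraries.

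In CPM, 5 of the 9 receptors tested had groups that did not overlap, against 26% of all genes: PPARG, NR1H2, NR1H3 and NR1H4 were higher and NR1I2 lower in siLINC01186. NR1H4 was tested only because of its siLINC01186 reads, so its groups had to differ, and nothing is read from this count. In deposited TPM the count was 2, NR1H4 and NR1I2, whose counts were the lowest of those tested. By TMM-scaled ratios the direction was the same in both pairs for 5 of 9 receptors, against 53.4% of all genes. NR1H4 was among these 5. All its reads were in siLINC01186, so its direction could not be lower, and nothing is read from this share either.

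**Figure D3:**
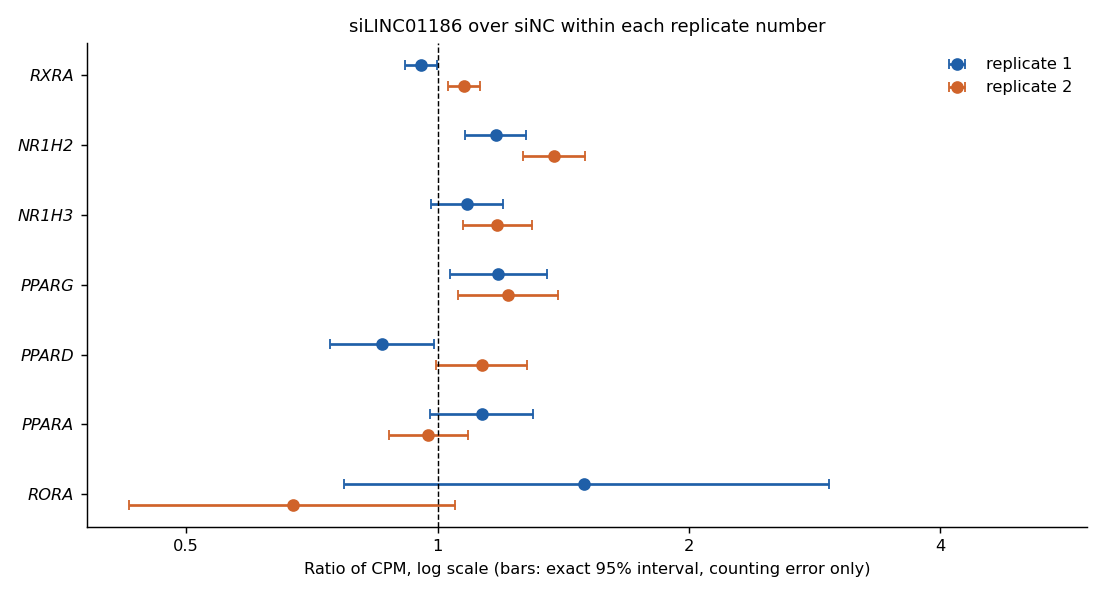
Ratio of siLINC01186 to siNC (log axis) for the 7 receptors with at least 18 counts in every library, in replicate 1 (blue) and replicate 2 (orange), scaled by TMM, with exact 95% intervals for counting error. NR1H2 and PPARG lie above 1 in both pairs with intervals that exclude 1, while RXRA, PPARD and RORA lie on opposite sides of 1. PPARA does so on this scale but not by library total, where its ratios were 1.11 and 1.01.

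The oligo named siSALIS_02 in the study's supplement, where SALIS is the study's name for LINC01186, is one of those used against the RNA. It was the only oligo searched here, and the sources used here do not say whether it was used for these libraries. An siRNA strand can pair with messenger RNAs through its bases 2 to 8, the seed. The 2 strands are shown with the seed in capitals.
siSALIS_02: cTAAGTGActcactgcatc
complementary strand: gATGCAGTgagtcacttag

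Sites that pair with a seed, TCACTTA for the printed strand and ACTGCAT for its complement, were searched in the 3′UTR of each gene, taking the longest annotated (GENCODE release 29). PPARA, with a 3′UTR of 8379 nt, had 2 ACTGCAT sites and RORA, with 9174 nt, had 1 TCACTTA site. The other 8 receptors had 0 sites for this oligo, in 3′UTRs of 339 to 2115 nt, and for RXRA the annotated 3′UTR was only 408 nt. Sites for other oligos were not searched. Over all 14941 tested genes with a 3′UTR, whose median length was 1515 nt, 23.5% carried either site, so 2 of 10 receptors is near the share of all genes. The sites are shown with their flanks and with the 7 matching bases in capitals.
PPARA, first site: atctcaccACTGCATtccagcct
PPARA, second site: cacatacaACTGCATccttttgg
RORA: ccaactttTCACTTAccttgggt

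The intervals of both pair ratios of PPARA and of RORA, given above, include 1. The labels do not say whether either replicate received siSALIS_02, and a site match is a description of the sequence.

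The replicates were compared because the libraries differed more by number than by siRNA. By the study's account the siLINC01186 replicates received different oligos, so within siLINC01186 the replicate number and the oligo cannot be told apart. Between replicate 2 and replicate 1, each with a siNC and a siLINC01186 library, edgeR's quasi-likelihood test called 2158 of 23942 genes at an adjusted p under 0.05, a background of 9.01%, with 4.44% of genes higher and 4.57% lower in replicate 2. Of the 9 receptors tested, 1 was called, PPARA.

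PPARA was higher in replicate 2. It had 407 and 392 counts in the replicate 1 libraries of siNC and siLINC01186 and 654 and 702 counts in those of replicate 2. In CPM these were 24.3 and 27.4 against 40.5 and 39.5, so the replicates did not overlap. The mean rose from 25.9 ± 2.22 CPM (SD, n = 2) to 40.0 ± 0.715 CPM (SD, n = 2), a log2 fold change of 0.63 with a standard error of 0.14 (adjusted p = 0.0121, edgeR). Within siNC the ratio of replicate 2 to replicate 1 was 1.67 (exact 95% interval 1.47 to 1.89) and within siLINC01186 it was 1.44 (1.27 to 1.63). Without siNC replicate 1 the log2 fold change was 0.54 and the adjusted p 0.113, and without any other library PPARA was still called.

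The hepatocyte markers moved with the replicates too. Of the 9 tested, 6 were called higher in replicate 2 and 0 lower, where 4.44% of all genes were higher. Of these, ALB, APOA1, APOB, SERPINA1 and TF had at most 1 count in each replicate 1 library and were tested only because of their replicate 2 reads, so nothing is read from the count. The markers' summed level was 2.96 to 3.17 TPM in replicate 1 and 10.1 to 10.8 TPM in replicate 2. Their most abundant member, HNF4A, a receptor that maintains hepatocyte identity, was the other gene called and stood at 4.72 and 5.81 CPM in replicate 1 and 9.97 and 10.6 CPM in replicate 2. Of the other-cell markers, 1 of 9 tested, COL1A1, was called higher in replicate 2, and their summed level was 67.7 to 76.0 TPM in replicate 1 and 80.4 to 91.2 TPM in replicate 2. The part of either marker list in the difference of PPARA was not tested.

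RORA stood at 1.07 and 1.61 CPM in replicate 1 and 3.10 and 2.08 CPM in replicate 2, without overlap. Its log2 fold change of 0.95, with a standard error of 0.36, was larger than that of PPARA but did not pass (adjusted p = 0.110, edgeR). The adjusted p was 0.0425 with the siRNA group in the model (edgeR). RORA was also called when at least 1 count was required, so its call depends on these choices. With a library left out, its log2 fold change ranged from 0.67 to 1.26. Within siNC the ratio of replicate 2 to replicate 1 was 2.88 (1.65 to 5.25), and within siLINC01186 it was 1.29 (0.748 to 2.28).

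The remaining abundant receptors did not pass. PPARD stood at 27.0 and 23.2 CPM in replicate 1 and 28.2 and 31.8 CPM in replicate 2, a log2 fold change of 0.26 with a standard error of 0.15 (adjusted p = 0.331, edgeR). Its ratio was 1.04 (0.915 to 1.19) within siNC and 1.37 (1.20 to 1.58) within siLINC01186. PPARG stood at 26.6 and 31.4 CPM in replicate 1 and 22.7 and 27.5 CPM in replicate 2, a log2 fold change of -0.21 with a standard error of 0.16 (adjusted p = 0.481, edgeR). Its direction was thus opposite to that of PPARA in both siRNA groups, with ratios of 0.853 (0.741 to 0.982) and 0.876 (0.769 to 0.998).

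RXRA, NR1H2 and NR1H3 had log2 fold changes of -0.10, -0.11 and 0.05 with standard errors of 0.11, 0.15 and 0.14. RXRA was lower in both replicate 2 libraries, at 226 and 243 CPM against 257 and 246 CPM. In CPM, 4 of 9 receptors had replicates that did not overlap, PPARA, PPARD and RORA higher and RXRA lower in replicate 2, against 52.6% of all genes. That share was no larger than the background. In deposited TPM, PPARA, PPARD, NR1H3 and RORA were higher and PPARG lower without overlap, while RXRA overlapped. By library total the RXRA ratio was 0.926 within siNC and 1.10 within siLINC01186, so its direction depends on the scaling.

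**Figure D4:**
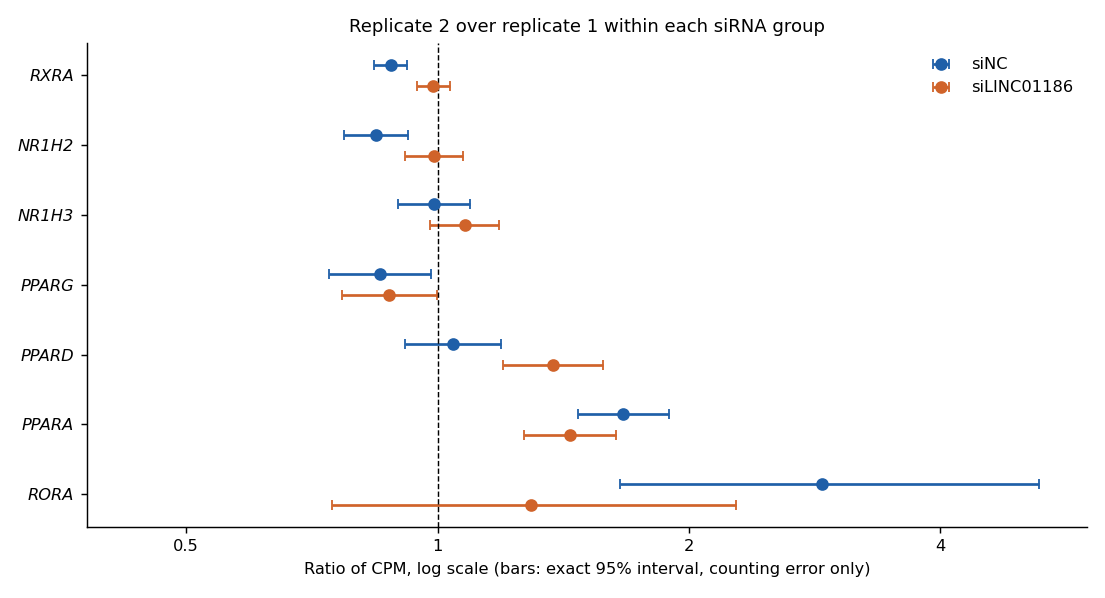
Ratio of replicate 2 to replicate 1 (log axis) for the same 7 receptors within siNC (blue) and within siLINC01186 (orange), with exact 95% intervals for counting error. PPARA lies above 1 in both groups, at 1.67 and 1.44, and PPARG below 1 in both.

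Genes downstream of the receptors were described by lists, beside a median log2 fold change over all genes tested of 0.00 for siLINC01186 against siNC and 0.02 for replicate 2 against replicate 1. For siLINC01186 against siNC, 0 genes of any list were called. The median log2 fold changes were 0.01 for 16 PPAR targets, -0.13 for 16 LXR targets, 0.12 for 10 FXR targets, -0.09 for 7 PXR targets and -0.11 for 9 ROR targets. The sign of each median depended on the processing. With a library left out they ranged from -0.21 to 0.19 for PPAR, -0.30 to 0.37 for LXR, -0.18 to 0.09 for PXR and -0.07 to 0.12 for ROR targets. The FXR median was -0.16 to -0.02 with a library left out and -0.13 with the expression filter. FASN, the most abundant gene of these lists, had a log2 fold change of -0.39 with a standard error of 0.20 and was not called.

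Between replicates, LXR targets had 4 of 16 genes called higher in replicate 2 and 0 lower, with a median log2 fold change of 0.53. Of all genes, 4.44% were called higher and 4.57% lower, which is the background of each list that follows. ABCG1, a cholesterol exporter, stood at 3.52 and 3.43 CPM in replicate 1 and 15.5 and 11.0 CPM in replicate 2, a log2 fold change of 1.93 with a standard error of 0.23 (adjusted p = 0.000211, edgeR). ABCA1, which loads cholesterol onto apolipoproteins, stood at 3.64 and 1.89 CPM in replicate 1 and 9.04 and 7.31 CPM in replicate 2. Its log2 fold change was 1.54, and those of APOE and SCD, the other genes called, were 0.85 and 0.44. The LXRs themselves, NR1H2 and NR1H3, were not called in this comparison. The rise of the hepatocyte markers and of COL1A1 given above belongs to the same comparison, and its part in the values of this and the following lists was not tested.

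PPAR targets had 3 of 16 genes called higher and 0 lower, with a median of 0.20. CREB3L3, a hepatic transcription factor of the fasting response, stood at 1.31 and 1.19 CPM in replicate 1 and 5.64 and 7.15 CPM in replicate 2, a log2 fold change of 2.34. HILPDA, a lipid droplet protein, and HADHA had log2 fold changes of 0.55 and 0.40. CPT1A, the entry enzyme of mitochondrial fatty acid oxidation, had a log2 fold change of 0.00 and was not called.

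ROR targets, a list made mostly of clock genes, had 3 of 9 genes called higher and 3 lower, with a median of -0.54. The median was -0.30 without siLINC01186 replicate 1, -0.31 without siLINC01186 replicate 2 and -0.32 without siNC replicate 2. ARNTL (BMAL1), the activator that RORs induce and REV-ERBs repress, stood at 13.4 and 12.2 CPM in replicate 1 and 25.5 and 22.5 CPM in replicate 2, a log2 fold change of 0.91. NFIL3, also repressed by REV-ERBs, had a log2 fold change of 0.84. NR1D1 and NR1D2, which encode the REV-ERBs, fell by 0.58 and 0.77 on the log2 scale in replicate 2, and NPAS2, the partner of ARNTL, fell by 0.65. APOA1, the third gene called higher, had 0 counts in both replicate 1 libraries and 21 and 20 in replicate 2, at least 6.24-fold higher against the mean floor of the replicate 1 libraries, and it is also a hepatocyte marker. It was tested only because of its replicate 2 reads.

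FXR targets had 1 of 10 genes called higher, SLC51B, an exporter of bile acids with a log2 fold change of 1.00, and 1 lower, SDC1, a surface proteoglycan that fell by 0.43. The median was -0.04, and 0.02 with ABCB11, at 0 counts in replicate 2, set to its bound. PXR targets had 0 of 7 genes called, with a median of 0.27, and their most abundant members were ALAS1, which starts heme synthesis, at 75.1 to 115 TPM and the transporter ABCC2 at 44.3 to 62.2 TPM.

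Of 18 coregulators, LPIN1, a coactivator of PPARA, was called higher with a log2 fold change of 0.57, and CREBBP, an acetyltransferase, fell by 0.41, with a median of -0.08. The methyltransferase CARM1, among their most abundant members, stood at 74.8 to 99.3 TPM and was not called. Of 33 other nuclear receptors tested, 2 were called higher and 2 lower in replicate 2, against 9.01% of all genes called. HNF4A, given above as a marker, was among those called higher and had a log2 fold change of 0.97. The receptors called lower were NR1D1 and NR1D2, counted above among the ROR targets.

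**Figure D5:**
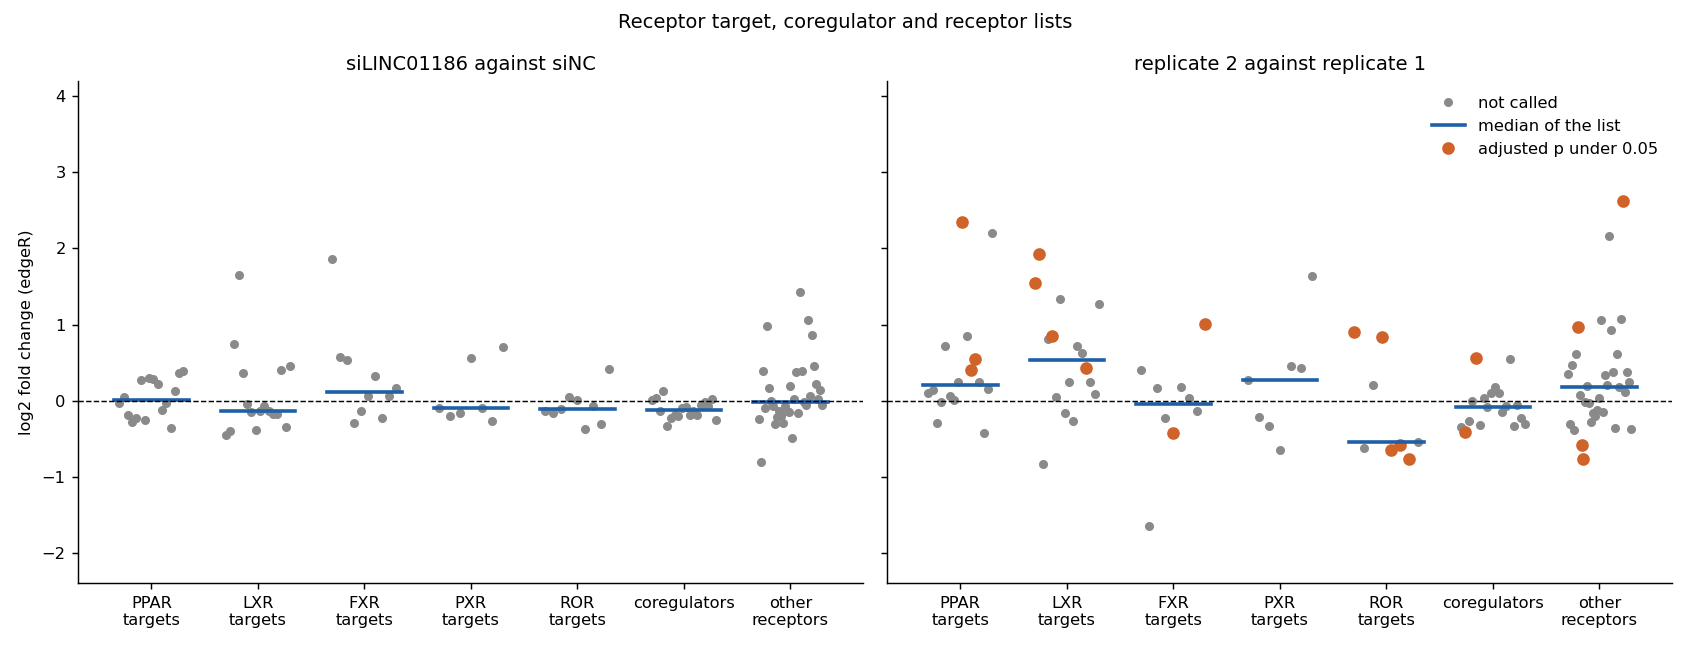
Log2 fold change from edgeR of each gene tested in the receptor target, coregulator and other receptor lists (points; orange where the adjusted p was under 0.05) with the median of each list (blue line), for siLINC01186 against siNC (left) and replicate 2 against replicate 1 (right). Genes with a group at 0 counts are not drawn but count in the medians. No gene is called on the left, and on the right the LXR list has the highest median, 0.53.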

How the data were processed

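RNA-seq libraries of cells labelled HepG2, 2 labelled siNC and 2 labelled siLINC01186, were used, with groups and replicate numbers taken from the sample labels. The authors deposited raw read counts per gene. They also deposited TPM values, which equal the count divided by the listed gene length and rescaled in each library (largest difference 2.91e-05). The processing notes of the submitters name hg19, HISAT2, HISAT, TopHat2 and Bowtie2 without roles or versions, and the counting program is not given in the sources used here. Poly(A) RNA was selected with oligo-dT beads. All rows were used, and the 4 whose identifiers occurred more than once were kept apart by adding their position.

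The 23942 genes whose counts summed to at least 5 were TMM-normalized and compared with the quasi-likelihood test of edgeR 4.0.16 in R 4.3.3, without a block, with Benjamini-Hochberg adjustment over all genes tested. Called genes had an adjusted p under 0.05, and the fold limits were a log2 fold change beyond 1 with an unadjusted p under 0.05. CPM used the TMM-scaled total. Ratios of 2 libraries carry exact conditional 95% intervals (SciPy 1.17.1, Python 3.11.15). The replicate contrast compared the 2 libraries numbered 2 with the 2 numbered 1. DESeq2 1.42.0, other scalings and filters, a replicate block and leaving out each library were alternatives. The fits were tested on simulated data.

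The receptors, the gene lists and the markers were chosen with earlier results of these data known. Named genes were the receptors and, of each list, up to 4 genes called per comparison and the 2 with the highest mean TPM, and genes overlapping a receptor. A few genes under this rule are not reported here. Genes named outside this rule for absent counts were chosen after their values were seen. Promoter sequences came from RefSeq, where 9 of the 10 receptors matched, and 3′UTRs from GENCODE release 29. Their build differs from that of the tables.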

Additional observations from a re-analysis of the deposited data

Results flagged for a closer look

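RXRA, the shared partner of the PPARs, the LXRs, FXR and PXR, moved in opposite directions in the 2 pairs of libraries. Its log2 ratio of siLINC01186 to siNC in replicate 1 minus that in replicate 2 was -0.17, from ratios of 0.956 and 1.08 whose exact intervals for counting error each exclude 1. With 1 library per group in a pair, this difference was not tested. By the study's account the oligo against LINC01186 also differed between the pairs, so oligo and replicate number cannot be told apart.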

How the results depend on the processing

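For siLINC01186 against siNC, 0 genes called became 1 with DESeq2's Wald test, 5 with at least 1 count, 278 with the replicate block and 0 to 6 with a library left out. The genes past the fold limits, 181, became 27 with DESeq2's Wald test, 46 with edgeR's expression filter, 46 with protein-coding genes and 248 to 375 with a library left out. The 1 receptor past them, NR1H4, became 0 with DESeq2's Wald test and with the expression filter, and 0 to 1 with a library left out: it did not pass without either siNC library and was not tested without siLINC01186 replicate 2. The number of receptors whose groups did not overlap fell from 5 to 2 in deposited TPM, a scale added after seeing the data. Between replicates, 2158 called genes became 4191 with the siRNA group as a term, which is the fit with the replicate block, and 1294 to 3332 with a library left out. The 1 receptor called became 2, with RORA, when at least 1 count was required and with the siRNA term, and 0 to 2 with a library left out.

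With a library left out, the log2 fold change for siLINC01186 against siNC ranged from -0.27 to 0.47 for PPARA, -0.26 to 0.21 for PPARD, -0.070 to 0.11 for RXRA and -0.74 to 0.79 for RORA, and that of PPARD was 0.0028 with the expression filter. For replicate 2 against replicate 1 it ranged from -0.37 to 0.12 for NR1H2, -0.076 to 0.19 for NR1H3 and -0.42 to 1.25 for NR1I2. The cause was not tested. PPARG, NR1H2 and NR1H3 stayed higher in siLINC01186 under every alternative of the fit.

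After subtracting group means, libraries that share a number correlated at 0.324 across genes, which are not independent, and the first component, 49.2% of the variance, separated the numbers. With 2 pairs and no label of a shared batch, they are treated as shared numbers only. With the replicate block 0 of 9 receptors were called for siLINC01186 against siNC. NR1H4, NR0B2 and NR1I2 had 0 to 8 counts, a depth at which a difference can hardly be detected.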
